A study of Mus musculus with 2 samples.

Results

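Decidual marker genes are transcripts that uterine stromal cells make when they turn into decidual cells. A set of 8 such genes was described here, namely Tdo2, Alpl, Cebpb, Cryab, Gadd45a, Prl8a2, Prl3c1 and Prl6a1, chosen by name as every probe set that the platform annotation assigns to 1 of these symbols alone. They had 13 probe sets, out of 34945 probe sets with 1 gene symbol and 18193 genes. The data came from uterine stroma of C57BL/6 females on pregnancy day 4, with 1 array per genotype. The control array held cells of mice labelled Msx1Msx2 Floxed Control. The other array held cells of Msx1Msx2-null mice, made by crossing the floxed alleles with PRcre, which drives Cre recombinase from the progesterone receptor gene and so acts in every uterine cell type that expresses that receptor. The labels do not say whether the control mice carried Cre. RNA was pooled from 5 mice per genotype by the series design text and from 4 by the extraction protocol. All values are thus single measurements of a pool. No replicate error exists for them and no test between genotypes was possible.

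In the mouse, progesterone and the signal of an attaching blastocyst turn the fibroblasts around the implantation site into large, secretory, often polyploid decidual cells. The programme runs from transcription factors such as C/EBPβ through early enzymes such as alkaline phosphatase to late secreted products, among them hormones of the prolactin family. Msx1 and Msx2 are homeobox transcription factors that the uterus makes before attachment. Day 4 precedes decidualization, so the comparison addressed the level of these transcripts in stromal cells that had not yet responded to an embryo.

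Promoters were matched by symbol in the RefSeq promoter table (build GRCm38.p6) for 6 of the 8 genes, all but Cryab and Prl8a2. Each window holds 250 bases before and 50 after an annotated start. Promoters of 3 genes are shown because they stand for the 3 kinds of result described below: Tdo2, which was lower in the null array, Gadd45a, which was measured and close in both arrays, and Prl6a1, which was under the floor. Capitals mark matches on either strand to the homeodomain word TAATTG that Msx proteins bind, to the C/EBP word TTGCNNAA, to ACANNNTGT, which is the palindrome of the progesterone receptor, and to the TATA box word TATAAA. The windows lie at chr3:81975679-81975978 on the minus strand for Tdo2, at chr6:67037358-67037657 on the minus strand for Gadd45a and at chr13:27312365-27312664 on the plus strand for the first of 2 annotated starts of Prl6a1.
Tdo2: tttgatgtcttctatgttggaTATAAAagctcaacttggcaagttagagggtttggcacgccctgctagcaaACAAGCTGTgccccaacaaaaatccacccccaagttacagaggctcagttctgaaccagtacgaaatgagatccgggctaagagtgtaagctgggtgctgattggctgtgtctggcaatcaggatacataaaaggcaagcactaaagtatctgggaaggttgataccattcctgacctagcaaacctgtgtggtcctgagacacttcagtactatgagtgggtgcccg
Gadd45a: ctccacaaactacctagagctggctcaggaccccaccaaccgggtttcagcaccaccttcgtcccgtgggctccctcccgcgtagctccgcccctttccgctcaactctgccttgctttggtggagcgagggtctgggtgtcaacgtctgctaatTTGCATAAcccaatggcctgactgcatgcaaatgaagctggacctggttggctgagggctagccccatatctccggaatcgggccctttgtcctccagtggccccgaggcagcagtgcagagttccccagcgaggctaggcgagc
Prl6a1: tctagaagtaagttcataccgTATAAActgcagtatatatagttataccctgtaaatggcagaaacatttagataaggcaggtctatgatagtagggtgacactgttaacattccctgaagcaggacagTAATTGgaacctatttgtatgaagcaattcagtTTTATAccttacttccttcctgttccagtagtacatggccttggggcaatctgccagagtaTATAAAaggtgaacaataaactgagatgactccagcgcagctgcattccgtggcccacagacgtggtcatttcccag

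The Tdo2 window held 1 match to the progesterone receptor palindrome, ACAAGCTGT at position -178 from the start, and 1 to the TATA word at -229. It held 0 matches to the homeodomain or C/EBP words. The Gadd45a window held the C/EBP match TTGCATAA at -95. The Prl6a1 window held the homeodomain word at -121 and the TATA word at -229, at -88 on the other strand, and at -27. Among the 9 windows of the 6 genes, the homeodomain word was found only in the 2 overlapping windows of Prl6a1. These are short words. Over all 32851 windows of the table, 8% held the homeodomain word, 10.8% the C/EBP word, 6.85% the progesterone receptor palindrome and 13.6% the TATA word. A match is a description of letters, and no match says only that these letters are not in this window.

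Of the 8 decidual marker genes, 4 gave a signal that could be read in at least 1 array, and of these Tdo2 alone was past 2-fold, being lower in the null array. Cebpb, Cryab and Gadd45a were close in both arrays, and Alpl and the 3 prolactin genes were under the floor in both. The floor stands in for detection calls. It is the median signal of an array over its non-control probe sets, 31.0 for control and 30.1 for null cells, and a signal under it was taken as not measured, which does not show that a gene was silent. Of all genes, 35.0% were under it in both. The probe set of highest mean log2 signal stood for a gene, and a fold with 1 signal under the floor was computed against the floor and is given as "at least".

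**Figure D1:**
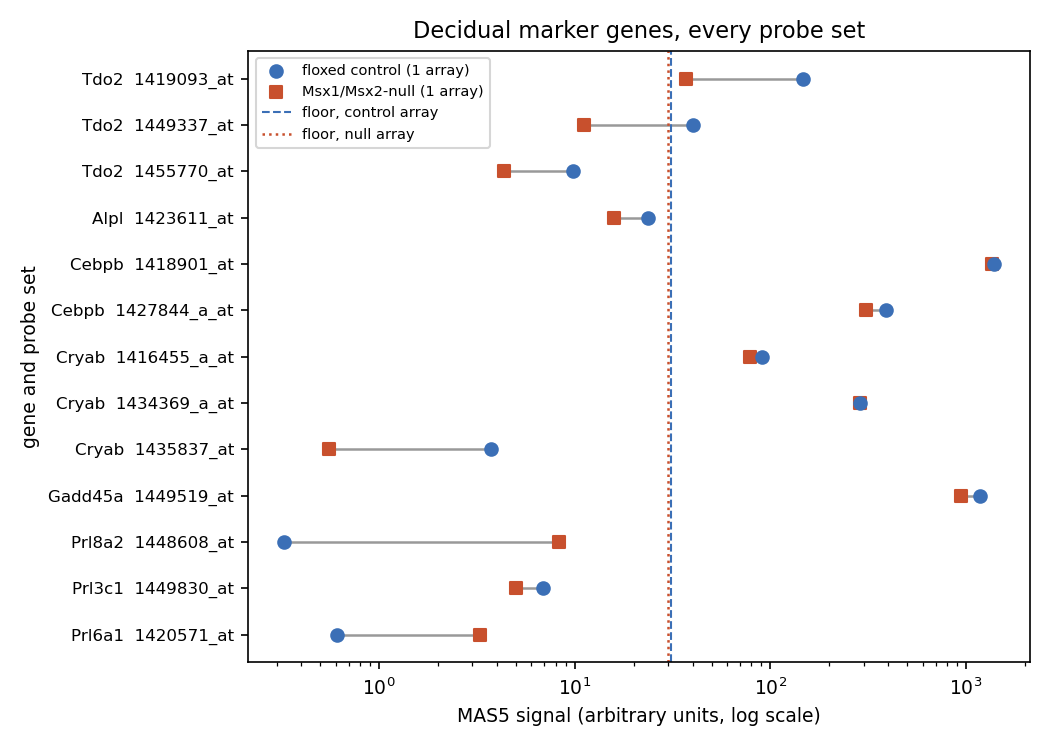
MAS5 signal (horizontal, log scale) of each of the 13 probe sets of the decidual marker genes in the floxed control array (circles) and the Msx1Msx2-null array (squares), with the floors of 31.0 and 30.1 as vertical lines. The 3 Tdo2 probe sets are all further left in the null array, the Cebpb and Gadd45a pairs and 2 of the 3 Cryab pairs lie close together above the floor, and Alpl and the prolactins lie under it in both arrays.

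Tdo2 encodes tryptophan dioxygenase, which opens the tryptophan ring in the first step of the kynurenine pathway and is a marker of decidual stroma in rodents. Probe set 1419093_at gave 147 in control and 37.2 in null cells, so that the null signal was 25.3% of the control signal, 3.96-fold lower (log2 ratio -1.98). Probe set 1449337_at gave 40.1 in control and 11.2 in null cells, at least 1.33-fold lower. Probe set 1455770_at gave 9.77 and 4.36, both under the floor, and so no fold. The null signal was the lower on 3 of 3 probe sets, although only the first was above the floor in both arrays, where its null signal was near the floor.

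The size of the Tdo2 difference was large for these 2 arrays. Over the 11137 genes readable in both arrays it was the 15th lowest ratio, and 32 genes had a ratio farther from 0 in either direction. As a scale of probe noise, the ratios of the 2 brightest probe sets were compared for 4690 genes, both above the floor in both arrays. The SD that this gives for 1 probe set was 0.32 on the log2 scale for the dimmest of 3 bins of signal, where Tdo2 lies, and the Tdo2 ratio was 6.11 times that SD. Differences between pools of mice or between hybridizations are not part of this SD. Fewer cells that make Tdo2 and less Tdo2 RNA per cell cannot be told apart in such pools. The call depended on reading the brightest probe set down to the floor used. With the floor at the 65th percentile the fold was at least 1.82, and with the median over the 3 probe sets it was at least 1.33.

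**Figure D2:**
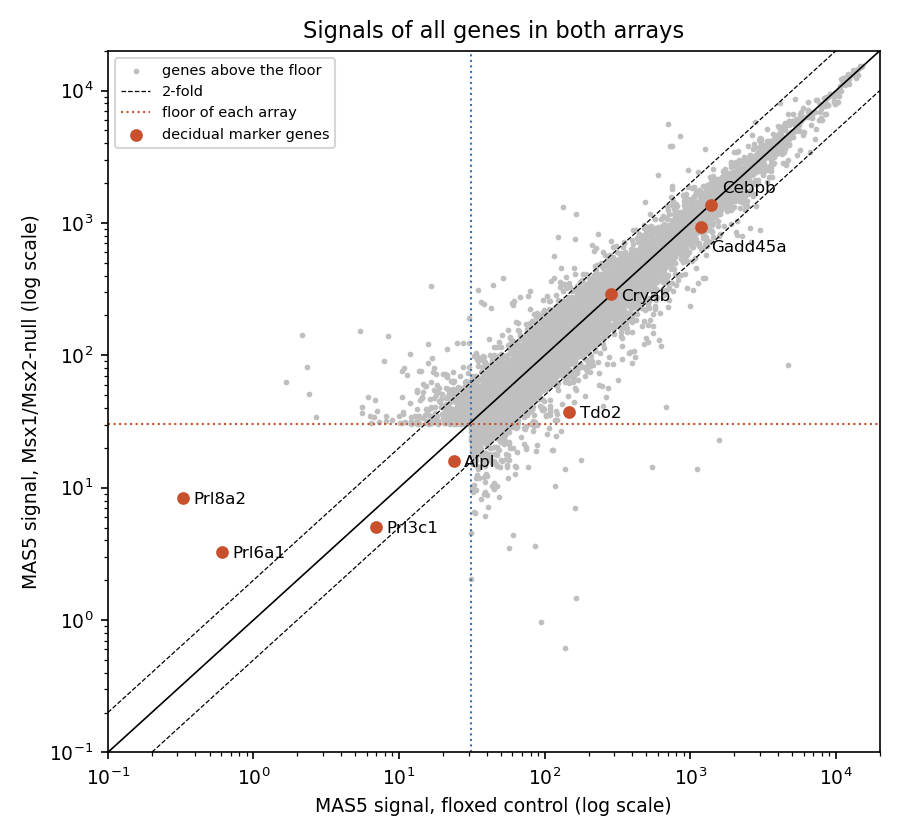
MAS5 signal of each gene in the floxed control array (horizontal, log scale) and the Msx1Msx2-null array (vertical, log scale), grey for the 11833 genes above the floor in at least 1 array and coloured for the 8 decidual marker genes, with the line of equal signal, dashed lines at 2-fold and dotted lines at the floors. Tdo2 lies below the lower 2-fold line, whereas Cebpb, Cryab and Gadd45a lie within the cloud and Alpl and the prolactins under the floors.

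Cebpb encodes C/EBPβ, a leucine zipper transcription factor that mouse stroma needs in order to decidualize. Probe set 1418901_at gave 1394 in control and 1360 in null cells, a log2 ratio of -0.04. Probe set 1427844_a_at had 392 and 307, a log2 ratio of -0.36. Both were lower in the null array, the first by only 0.17 times the single probe set SD of the brightest bin, 0.21. They differed from each other by 0.32, and a difference between 2 probe sets spreads more widely than that SD.

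Cryab encodes αB-crystallin, a small heat shock protein that keeps other proteins from aggregating. Its brightest probe set, 1434369_a_at, gave 286 in control and 288 in null cells, a log2 ratio of 0.01. Probe set 1416455_a_at had 90.6 and 79.1, a log2 ratio of -0.20, so the 2 measured probe sets had opposite signs and lay 0.21 apart. The last one, 1435837_at, lay under the floor at 3.71 and 0.552. The sign of Cryab thus depended on the probe set, and its median over probe sets was -0.20.

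Gadd45a is a stress-induced gene whose protein acts in growth arrest and DNA repair. Its single probe set, 1449519_at, gave 1179 in control and 937 in null cells, 1.26-fold lower (log2 ratio -0.33). That is 1.59 times the single probe set SD of the brightest bin, and 32.7% of the genes readable in both arrays had a ratio farther from 0.

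Alpl encodes tissue-nonspecific alkaline phosphatase, whose activity is a classical early stain for decidualizing stroma. Its single probe set, 1423611_at, gave 23.8 in control and 15.9 in null cells. Both signals were under the floor, so no fold is given.

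The late products were not measurable in either genotype. Prl8a2, the decidual prolactin-related protein, had 0.326 in control and 8.32 in null cells on 1448608_at. Prl3c1, another decidual member of the family, had 6.90 and 5.03 on 1449830_at. Prl6a1 had 0.609 and 3.30 on 1420571_at. As deposited, Prl8a2 and Prl6a1 were the higher in the null array and Prl3c1 in the control array. Ratios of such low signals were widely spread. Of 21310 probe sets under the floor in both arrays, 45.4% were past 2-fold one way or the other. As far from 0 as Prl8a2 or farther were 262, or 1.23%.

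The other prolactin family genes with a probe set assigned to them alone were under the floor as well. Some members, such as Prl3b1, Prl3d1, Prl3d2 and Prl3d3, had no such probe set and were not read. The annotation gave 18 family genes with 22 probe sets, and 0 of the 22 were above the floor in either array. Signals ran from 0.130 to 14.6 with a median of 1.24 in control cells, and from 0.164 to 12.0 with a median of 1.31 in null cells. The null signal was the higher on 11 probe sets and the lower on 11. In the gene table Prl6a1 and Prl8a2 are neighbours on chromosome 13, next to Prl3a1 and Prl2b1, and all 4 were under the floor. Genes of this family are similar in sequence, so a probe set may read more than 1 of them.

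**Figure D3:**
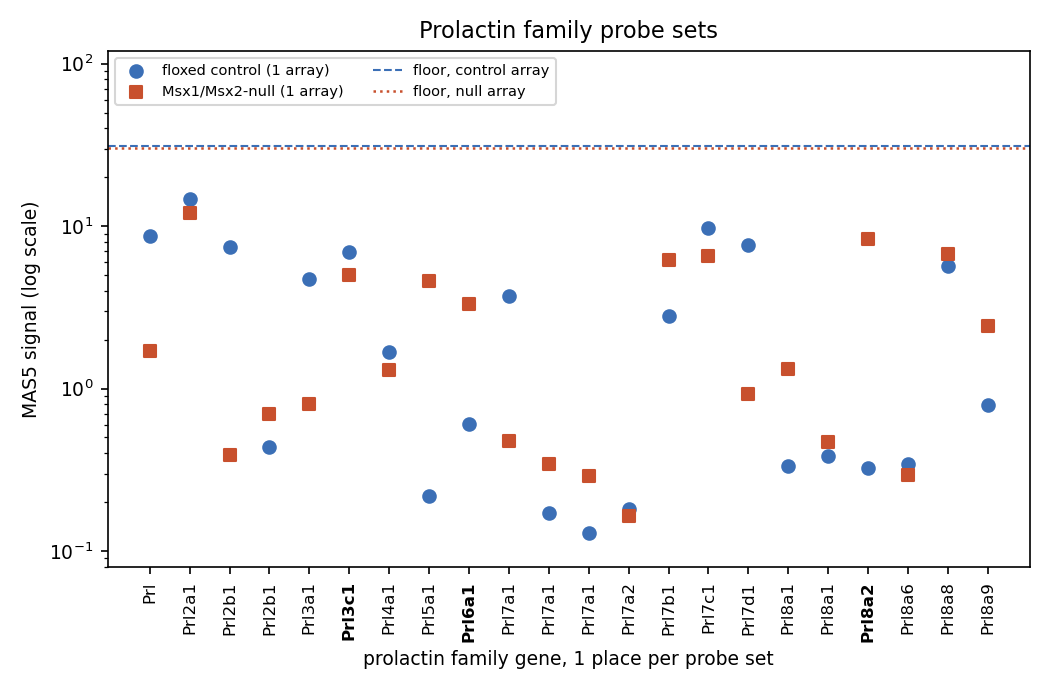
MAS5 signal (vertical, log scale) of the 22 prolactin family probe sets, 1 place each, in the floxed control array (circles) and the Msx1Msx2-null array (squares), with the floors of 31.0 and 30.1 as horizontal lines and the decidual marker genes in bold. Every probe set lies under both floors, the highest at 14.6.

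Counted as a set, 0 of the 4 readable genes were at least 2-fold higher in the null array, against 1.59% of 11833 genes above the floor, and 1 was at least 2-fold lower, against 1.80%. Their log2 ratios ran from -1.98 to 0.01 with a median of -0.18, beside a median of 0.02 over all genes. The count rests on Tdo2, and the other 3 readable genes lay within 2-fold.

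Genes that act before and around the markers were within 2-fold where they could be read. Of 36 decidualization regulators on the array, 34 were above the floor, 0 passed 2-fold, 12 had positive and 22 negative log2 ratios, and the median was -0.10. Over all genes above the floor, 6185 had positive and 5648 negative log2 ratios. Few of those genes were past 2-fold (1.59% higher and 1.80% lower), so a count of 0 does not set the regulators apart. That count was 2 with each gene read as the median of its probe sets. It was 1 with no floor and 1 without _x_at, _s_at and _a_at probe sets. The homeobox gene Hoxa11 went from 767 to 1333 (0.80). The gap junction connexin gene Gja1 went from 1999 to 3424 (0.78). Fst, which encodes the activin-binding protein follistatin, went from 1423 to 780 (-0.87). Fkbp5, a co-chaperone of steroid receptors that progesterone induces, went from 315 to 200.2 (-0.65). Some regulators of textbook standing, named after their values were seen, were closer. Bmp2, a growth factor that stroma needs to decidualize, had 202 in control and 182 in null cells, a log2 ratio of -0.15. Wnt4, which acts after Bmp2, had 70.1 and 48.2 (-0.54). Hoxa10 had 1459 and 1944 (0.41), and Pgr, the progesterone receptor, had 1891 and 2663 (0.49). Il11, a cytokine of the decidual reaction, lay under the floor at 9.48 and 4.76.

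Other products of decidual stroma were on both sides of 0. Of 35 on the array 30 were above the floor, 1 was past 2-fold higher and 1 past 2-fold lower, and the median log2 ratio was 0.13, or -0.10 with no floor. Igfbp3, a carrier of insulin-like growth factors, went from 1128 to 354, 3.18-fold lower, and its other probe set above the floor had the same sign. The secreted serine protease gene Htra1 went from 1138 to 2435, 2.14-fold higher, also with a second probe set of the same sign. Bmp7 had a log2 ratio of 0.95 and Pgf, a placental growth factor of the VEGF family, -0.91. Igfbp1, the carrier known best from human decidua, lay under the floor at 1.68 and 0.787.

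**Figure D4:**
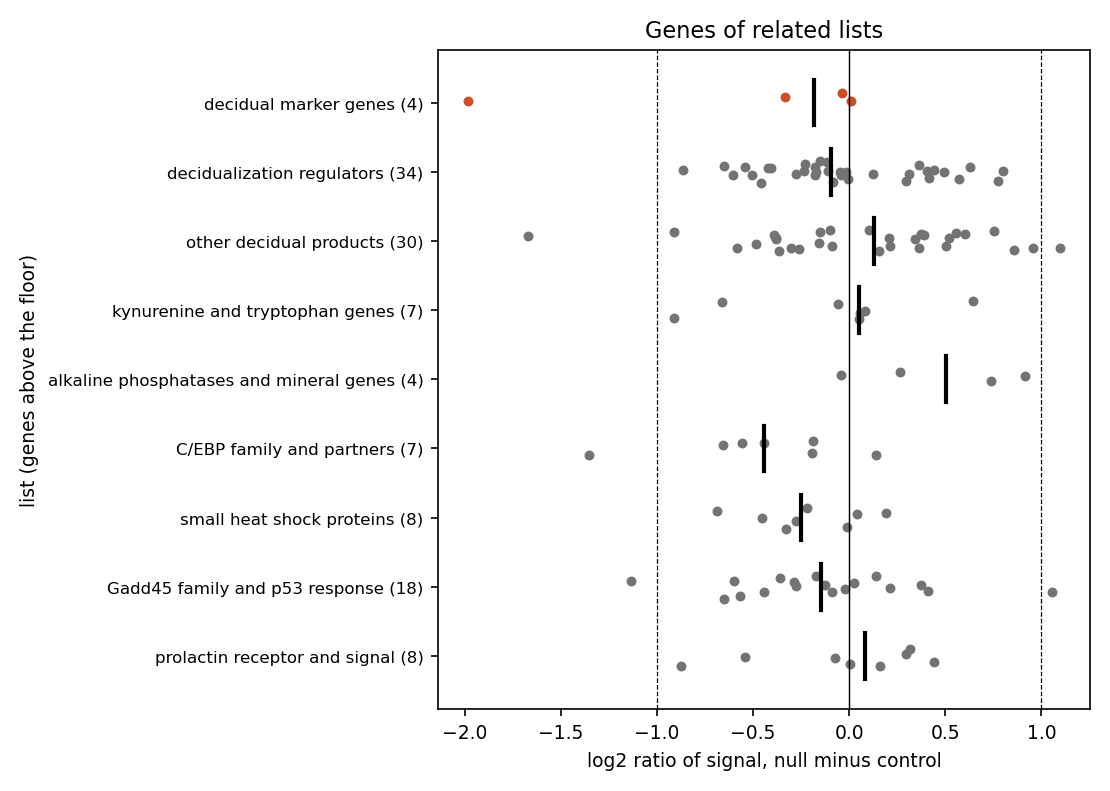
Log2 ratio of signal, null minus control (horizontal), of the genes above the floor in the decidual marker set (coloured) and in related gene lists (grey), 1 point per gene and a black bar at each median, with dashed lines at 2-fold. Tdo2 at -1.98 is the point farthest left in the plot, and most other genes lie within 2-fold.

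Set beside its own pathway, Tdo2 had few measured partners. Of 15 other kynurenine and tryptophan genes, 8 could be read in neither array, among them Ido1, Kmo and Kynu, which encode an alternative first enzyme and later enzymes of the pathway. Of the 7 others 0 passed 2-fold, with a median log2 ratio of 0.05. The aryl hydrocarbon receptor gene Ahr, whose protein binds kynurenine, went from 664 to 353 (-0.91). The tryptophanyl-tRNA synthetase gene Wars had -0.66, the aminotransferase gene Kyat3 0.64 and the amino acid transporter subunit gene Slc3a2 0.08. On the chromosome, the nearest protein-coding neighbours of Tdo2 that could be read, Ctso and Pdgfc on one side and Gucy1b1 on the other, had log2 ratios of -0.46, -0.24 and -0.59. Asic5, the other flanking gene, was under the floor. The genes whose pair of log2 signals lay nearest to that of Tdo2 over these 2 arrays were Tshr, Esrp2, Hs3st6, Clec1b and Prss12. The nearest of them, the thyrotropin receptor gene Tshr, went from 155 to 36.7, 4.22-fold lower, at a distance of 0.075 in log2 units.

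Readable relatives of the other markers were mostly within 2-fold, as were most genes (1.59% past it higher and 1.80% lower). Among the alkaline phosphatase and mineral genes the 3 other phosphatases, Alpi, Alppl2 and Akp3, were under the floor like Alpl. The 4 readable genes had a median of 0.50, with the pyrophosphate exporter gene Ank at 0.91, the vitamin B6 kinase gene Pdxk at 0.74, and the phosphate transporter genes Slc20a2 and Slc20a1 at 0.27 and -0.04. A second Slc20a2 probe set had the opposite sign.

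The C/EBP list had 7 readable genes, 6 with negative ratios, and a median of -0.44. The stress factor gene Atf3 went from 2084 to 815, 2.56-fold lower, and was the 1 gene past 2-fold. Atf4 had -0.56, Ddit3 -0.44, and Cebpd -0.66 with another probe set of the opposite sign. Of the small heat shock list 8 genes were readable, 0 passed 2-fold and the median was -0.25. Hspb2, which lies beside Cryab on chromosome 9, went from 102 to 63.2 (-0.69), beside 0.01 for the brightest probe set of Cryab. Hspb1 had -0.45, Hspb6 -0.33 and Hspb8 -0.28.

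In the Gadd45 and p53 response list all 18 genes were readable, 1 was past 2-fold in each direction, 12 had negative ratios and the median was -0.15, or 0.02 with each gene read as the median of its probe sets. Gadd45b, a stress-induced relative of Gadd45a, went from 709 to 323, 2.20-fold lower, although 1 of its 2 other probe sets had the opposite sign. Sesn2 was at least 2.08-fold higher, with another probe set of the opposite sign. Btg2 and Plk2, further stress-induced genes, had -0.60 and -0.65. For the receptor side of prolactin, 8 of 8 genes on the array were readable and 0 passed 2-fold. The kinase gene Jak2 went from 1277 to 697 (-0.87), its targets Stat5a and Stat5b had 0.44 and 0.31, and the feedback inhibitor gene Socs3 had -0.54.

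Genes of the dissociation response are given beside Cebpb and Gadd45a because stress can induce both. Of 24 immediate early and heat shock genes, which tissue digestion can induce, 21 had negative ratios, 3 passed 2-fold lower and 0 higher, and the median was -0.44. Their summed signal was 87130 in control and 71771 in null cells. Fos, Egr1 and Hspa8 had log2 ratios of -0.20, -0.42 and 0.15, with 1 of 3 other Hspa8 probe sets of the opposite sign. Atf3 and Btg2 are in this list too. The part of the dissociation response in the values of Cebpb, Gadd45a and Atf3 was not tested.

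Markers of the labelled cell type were present in both arrays. All 15 stromal fibroblast markers were above the floor, 0 passed 2-fold, and the median was 0.04 with summed signals of 64976 and 66280. Col3a1, Col1a2 and Dcn, which encode fibroblast matrix proteins, had 0.05, 0.15 and -0.10. For Col3a1 and for Dcn the 1 other probe set above the floor had the opposite sign. All 14 epithelial markers on the array were above the floor, 3 past 2-fold higher and 3 lower, with a median of -0.11. The keratin and claudin genes Krt8, Krt18 and Cldn3 had -0.40, -1.06 and -0.13. The members past 2-fold, named after their values were seen, were Ltf (2.66), Calb1 (2.34) and Krt19 (1.04) on the higher side, and Krt18, Foxa2 (-2.18) and the secreted protease inhibitor gene Spink1 (-5.77) on the lower. The summed signal of the list was 16880 in control and 14054 in null cells, and without Spink1 it was 12223 and 13969.

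All 10 endothelial and all 11 macrophage markers had negative ratios, with medians of -0.69 and -0.45. Their summed signals went from 4926 to 3209 and from 9718 to 6896, and 0 endothelial markers passed 2-fold. The macrophage markers Lyz2, C1qa and C1qb had -0.36, -0.45 and -0.72, and 2 of the list, Mrc1 and Fcgr3, passed 2-fold lower. All 8 natural killer markers had positive ratios, with a median of 0.61 and summed signals of 2032 and 3508, and 9 of 10 smooth muscle markers did, with a median of 0.40 and sums of 13291 and 17754, and 0 members of either list passed 2-fold. Of 11 trophoblast and blastocyst markers 8 could be read in neither array. Eomes went from 71.6 in control to 113 in null cells. Gata3 and Elf5 had 59.2 and 37.2 in null cells, but their control signals, 18.2 and 10.7, were under the floor and so not measured. Their ratios are thus lower bounds computed against the floor, and 0 markers of this list passed 2-fold. The part of these cell types in the Tdo2 value was not tested.

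**Figure D5:**
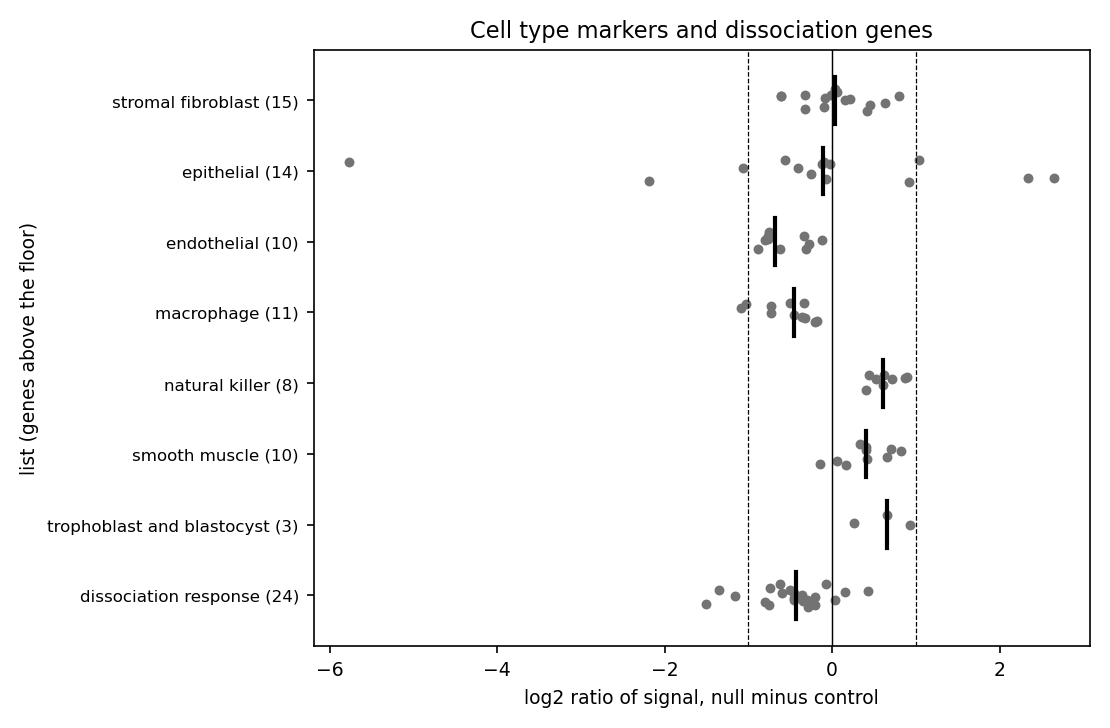
Log2 ratio of signal, null minus control (horizontal), of the genes above the floor in lists of cell type markers and of genes that tissue dissociation can induce, 1 point per gene and a black bar at each median, with dashed lines at 2-fold. Stromal markers centre at 0.04, endothelial, macrophage and dissociation genes lie mostly below 0 and natural killer markers all above it.

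Labels and arrays were checked on the targeted genes. Msx1 went from 1581 to 23.0 on 1448601_s_at, at least 52.6-fold lower, and from 414 to 2.64 on 1417127_at, at least 13.8-fold lower. Msx2 went from 63.7 to 14.5 on 1449559_at, at least 2.12-fold lower. The other Msx2 probe set, 1438351_at, had 15.9 and 2.85, both under the floor, and so no fold. The place of these probe sets relative to the loxP sites was not given here. The ratio of 3' to 5' signal, a measure of RNA breakdown, was higher in the null array, at 1.28 against 0.967 for Gapdh and 2.33 against 1.80 for Actb. The part of RNA quality in the member values was not tested.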

How the data were processed

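Total RNA of uterine stromal cells was hybridized to Affymetrix 3' arrays, 1 array of pooled RNA per genotype. Signal intensities on a linear scale were deposited. Per the submitters' processing notes, the authors used MAS5 and Affymetrix Expression Console 1. MAS5 subtracts mismatch and background signal, so that ratios of dim probe sets are unstable. The mean signal after trimming 2% at each end was 150.001 in both arrays, so they had been scaled to a common level. Settings for background and calls of detection are not given in the sources used here.

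With Python 3.11.15 and pandas 2.3.3, the intensities were turned into log2 values with no further scaling, and ratios are null minus control. The 64 control probe sets were left out of the floor and of gene values. Genes took the probe set of highest mean log2 signal, signals under the 50th percentile of an array were raised to it, and genes were called at 2-fold. No count or p-value over samples exists with 1 array per genotype. The steps were tested on simulated data with equal probe noise at every signal. That test does not cover the wider noise of dim probe sets. Lists of related genes had up to 4 members named by largest ratio, marker lists 3 by signal (not all of them printed). Msx1, Msx2 and Pgr were named by rule, and Bmp2, Wnt4, Hoxa10, Il11, Igfbp1, Fcgr3, Mrc1, the epithelial markers past 2-fold and genes under the floor by choice. The genes described and all lists were chosen with earlier results of these data known. Alternatives were other floors, probe set rules, scalings and folds. The protein comparison that was planned was not run.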

Additional observations from a re-analysis of the deposited data

How the results depend on the processing

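No paired analysis was possible because each genotype has 1 array, and for the same reason no array could be left out. The count of decidual marker genes past 2-fold lower, 1 in the report, was 0 with the floor at the 65th percentile and 0 with the median over probe sets, because the null signal of Tdo2 was then under the floor. It was 1 in the other 6 alternatives. The count past 2-fold higher, 0 in the report, was 2 with no floor, from Prl8a2 (25.5-fold) and Prl6a1 (5.41-fold), and 0 in the other 7. The median log2 ratio of the readable members ran from -0.33 to -0.16 and stayed negative in the 7 alternatives tried. The genes behind it were not the same throughout. With no floor it covered all 8 members, and without _x_at, _s_at and _a_at probe sets, at -0.33, Cryab was not included.

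Of 27 values of single members under these alternatives, 24 moved by less than the single probe set SD of 0.27. The other 3 were those of Tdo2, with log2 ratios of -0.86 and -0.42 as bounds at the 65th percentile floor and with the median over probe sets, and -1.62 with 16 added to each signal. Cryab changed sign with the median over probe sets, at -0.20, and could not be read without _x_at, _s_at and _a_at probe sets. Over all genes the counts higher and lower, 188 and 213 in the report, were 1797 and 1772 with no floor and 97 and 123 with the higher floor. With no floor the genes past 2-fold went from 0 to 6 in the kynurenine list, from 2 to 7 among other decidual products, from 0 to 2 among phosphatase and mineral genes, and from 0 to 1 among regulators and small heat shock genes. Among regulators they were 2 with the median over probe sets and 1 without the suffixed probe sets, and in the Gadd45 list 1 in place of 2 with the higher floor or the median over probe sets. Medians of 4 lists changed sign. The prolactin receptor list went from 0.08 to -0.39 without the suffixed probe sets and -0.09 with the median over probe sets. Other decidual products went from 0.13 to -0.10 with no floor and -0.09 without the suffixed probe sets. The kynurenine list went from 0.05 to -0.0011 under the higher floor and to -0.04 under the median over probe sets, and the Gadd45 list from -0.15 to 0.02 with the median over probe sets. The ratio of summed epithelial signal, null over control, went from 0.833 to 1.14 without Spink1, an alternative chosen after seeing the data. The dim signals limit what can be said of Alpl and the prolactin genes.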
